A study of Homo sapiens with 29 samples.

Results

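MCRS1 occupied 3019 regions in HepG2 cells where YY1 was also found and INO80 was not. They are 12.9% of the 23425 MCRS1 regions mapped in that line by chromatin immunoprecipitation and sequencing (ChIP-seq). They were defined by the peak lists themselves: each is an MCRS1 peak that overlaps no INO80 peak and shares at least 1 bp with a YY1 peak, all in HepG2. Presence of MCRS1 and YY1 and absence of INO80 are therefore given by the rule and are no finding, and the same holds for the width of the regions, which affects whether peaks overlap. The readouts that the rule did not use are RUVBL1 and RUVBL2 in HepG2, every list from Huh7, the position relative to genes, and the DNA sequence.

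The study mapped subunits of the INO80 chromatin remodelling complex in HepG2 and Huh7, both established human liver cancer cell lines, here untreated and unmodified as far as the labels say. MCRS1 was mapped from 2 libraries per line with 1 antibody (protein-tech) and INO80 from 3 libraries in HepG2 and 2 in Huh7. RUVBL2 had 2 libraries per line, RUVBL1 had 2 in HepG2, and YY1 had 2 in Huh7, while YY1 in HepG2 comes from ENCODE reads passed through the same steps. Each factor has 1 peak list per line, and nothing in the labels says that the libraries came from separate cultures. The lists give positions only, so the read depth behind a region is unknown, there is no replicate error, and no test of occupancy was possible. Shares are given with 95% Wilson intervals, and differences between classes of region with 95% Newcombe intervals. Both cover counting error only and treat regions as independent, which neighbouring regions are not.

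MCRS1 is a subunit of more than one chromatin complex. In the INO80 complex it sits beside the INO80 ATPase, which slides nucleosomes with the help of the ATPases RUVBL1 and RUVBL2. In the NSL complex it sits beside KANSL1, KANSL2, KANSL3, PHF20, WDR5, HCFC1, OGT and the acetyltransferase KAT8 (MOF), which acetylates histone H4, and that complex is known for binding the starts of housekeeping genes. YY1 is a zinc finger transcription factor that binds DNA by itself, and it copurifies with the INO80 complex. RUVBL1 and RUVBL2 also belong to the TIP60 and SRCAP complexes. No other NSL subunit was analysed here, so the lists do not say which complex carried MCRS1 at any region.

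The reference sequence of 7 of the regions shows examples of the DNA at or beside the shared MCRS1 and YY1 signal. All windows are 100 bases on the plus strand of hg19, taken from the reference genome, and overlap no annotated exon. The first 5 are centred on the long YY1 motif, AANATGGC on either strand with N for any base, nearest to the middle of the YY1 peak. They come from among the widest regions that had it, 3 within 1 kb of the start of a protein-coding gene and then 2 away from such starts. Capitals mark the motif. TTC1 encodes a tetratricopeptide repeat protein, TNNI3 cardiac troponin I, SNX12 a sorting nexin, SDC1 the cell surface proteoglycan syndecan-1, ADA adenosine deaminase and PKIG an inhibitor of protein kinase A.
TTC1, chr5:159435948-159436047: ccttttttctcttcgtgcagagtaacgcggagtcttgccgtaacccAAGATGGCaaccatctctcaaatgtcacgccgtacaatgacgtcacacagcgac
TNNI3, chr19:55667427-55667526: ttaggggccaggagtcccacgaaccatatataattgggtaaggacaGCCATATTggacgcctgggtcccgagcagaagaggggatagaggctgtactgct
SNX12, chrX:70288329-70288428: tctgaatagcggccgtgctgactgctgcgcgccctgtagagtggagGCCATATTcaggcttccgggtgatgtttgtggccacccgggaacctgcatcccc
SDC1, chr2:20415174-20415273: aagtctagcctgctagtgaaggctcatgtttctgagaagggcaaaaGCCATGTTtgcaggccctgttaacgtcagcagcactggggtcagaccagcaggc
ADA and PKIG, chr20:43238583-43238682: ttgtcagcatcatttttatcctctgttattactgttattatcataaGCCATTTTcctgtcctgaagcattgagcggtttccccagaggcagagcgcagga

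The middle of the TTC1 window lay 123 bp before the nearest start of its gene, and that of the SNX12 window 80 bp before. In TNNI3 it lay 617 bp inside the transcribed side of the start. At all 3 of these starts the motif was under the YY1 peak but outside the MCRS1 peak. The MCRS1 region at TTC1 ran from 159436196 to 159436504 and the YY1 region from 159435618 to 159436330, so the motif sat to one side of the bases they share. SDC1 held its motif inside the MCRS1 region (chr2:20413981-20415975, in an intron), together with RUVBL2 in HepG2 and YY1 in Huh7.

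A second pair of windows, from regions away from coding starts, is centred on the HNF4A motif CAAAGTCCA, the binding sequence of a nuclear receptor that is central to hepatocyte identity. Capitals mark that motif and, where the window holds it, the forkhead (FOXA) motif TGTTTNC. Both motifs fell within 200 bp about the middle of only 3 regions, and the 2 widest that met the exon rule are shown. MYO9B encodes an unconventional myosin and FGGY a carbohydrate kinase.
MYO9B, chr19:17311705-17311804: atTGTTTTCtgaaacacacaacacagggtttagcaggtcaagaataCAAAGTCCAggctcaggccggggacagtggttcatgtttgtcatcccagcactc
FGGY, chr1:60135487-60135586: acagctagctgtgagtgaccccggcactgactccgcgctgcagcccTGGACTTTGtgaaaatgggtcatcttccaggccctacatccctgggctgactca

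The window in MYO9B lay 99288 bp into the gene from the nearest start used and that in FGGY 115946 bp. Both were intronic. The MYO9B region also held YY1 in Huh7, while the FGGY region held none of RUVBL1, RUVBL2 or the Huh7 factors. Their nearest INO80 regions in HepG2 were 14054 bp and 60717 bp away.

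The regions were narrow compared with those where all 3 factors met. Their median width was 299 bp, with the middle 80% between 158 and 798.4 bp and the widest at 2672 bp. MCRS1 regions with both INO80 and YY1 numbered 14873 and had a median width of 1026 bp, those with INO80 but no YY1 numbered 1755, and those with neither numbered 3778 with a median of 210 bp. YY1 covered at least 50% of the bases in 1841 regions and every base in 571, and it covered a median of 176 bp. The nearest INO80 region lay at a median distance of 10188 bp. It was within 1 kb for 493 regions and over 10 kb away for 1524.

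**Figure D1:**
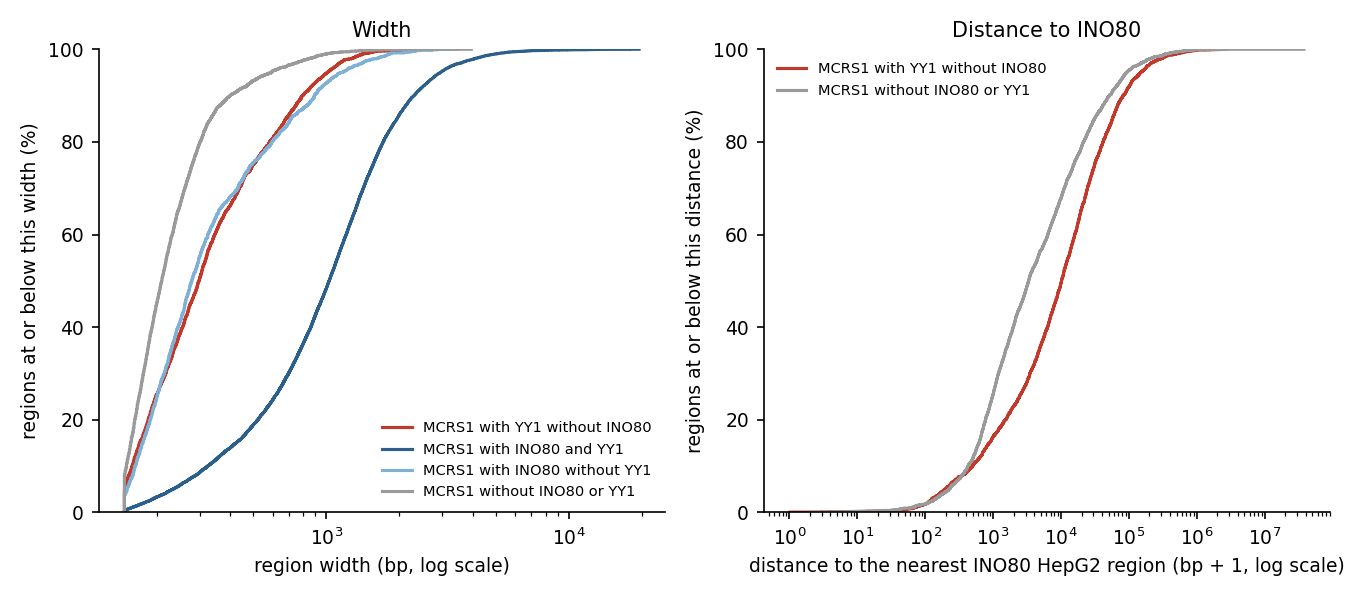
Cumulative share of MCRS1 HepG2 regions (vertical axes, percent) against region width in bp (left, log scale, 4 classes) and against distance to the nearest INO80 HepG2 region in bp (right, log scale, the 2 classes without INO80). The red curve of regions with YY1 and without INO80 lies close to that of regions with INO80 and without YY1 in width, far left of the blue curve, and its distances centre on 10188 bp.

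RUVBL2 was found at few of these regions. It overlapped 321 of 3019, which is 10.6% (9.58 to 11.8), where 44.0% of all MCRS1 regions in HepG2 had it. With INO80 and YY1 both present the share was 61.6%, a difference of -50.9 percentage points (-52.2 to -49.5). Regions with neither INO80 nor YY1 also stood at 10.6%, and the interval of that difference, -1.39 to 1.56 points, includes 0. Regions with INO80 and no YY1 had RUVBL2 in 24.9%. The classes depend on the width of the peaks: with every peak of every list set to 200 bp about its middle, 4459 regions met the rule and 19.8% (18.7 to 21.0) had RUVBL2, against 39.7% with INO80 and YY1 and 13.5% (12.8 to 14.3) with neither. With at least 50% of the MCRS1 region required for an overlap, 1841 met it and 4.73% had RUVBL2.

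RUVBL1 was rarer still. It overlapped 105 regions, 3.48% (2.88 to 4.19), against 19.5% of all MCRS1 regions and 28.4% of those with INO80 and YY1. The share was 7.42% with every peak at 200 bp and 1.90% with the 50% requirement. Here the regions lay above those with neither factor, at 2.01%, by 1.47 points (0.689 to 2.29). Only 25 regions, 0.828%, held both RUVBL proteins, which form a joint ring in the complexes they serve. The share was 15.5% of all MCRS1 regions, 23.4% with INO80 and YY1 and 0.873% with neither. The interval of the difference from the last, -0.486 to 0.420 points, includes 0. YY1 regions without MCRS1 or INO80, 18572 in number, had RUVBL2 in 0.641% and RUVBL1 in 0.275%.

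**Figure D2:**
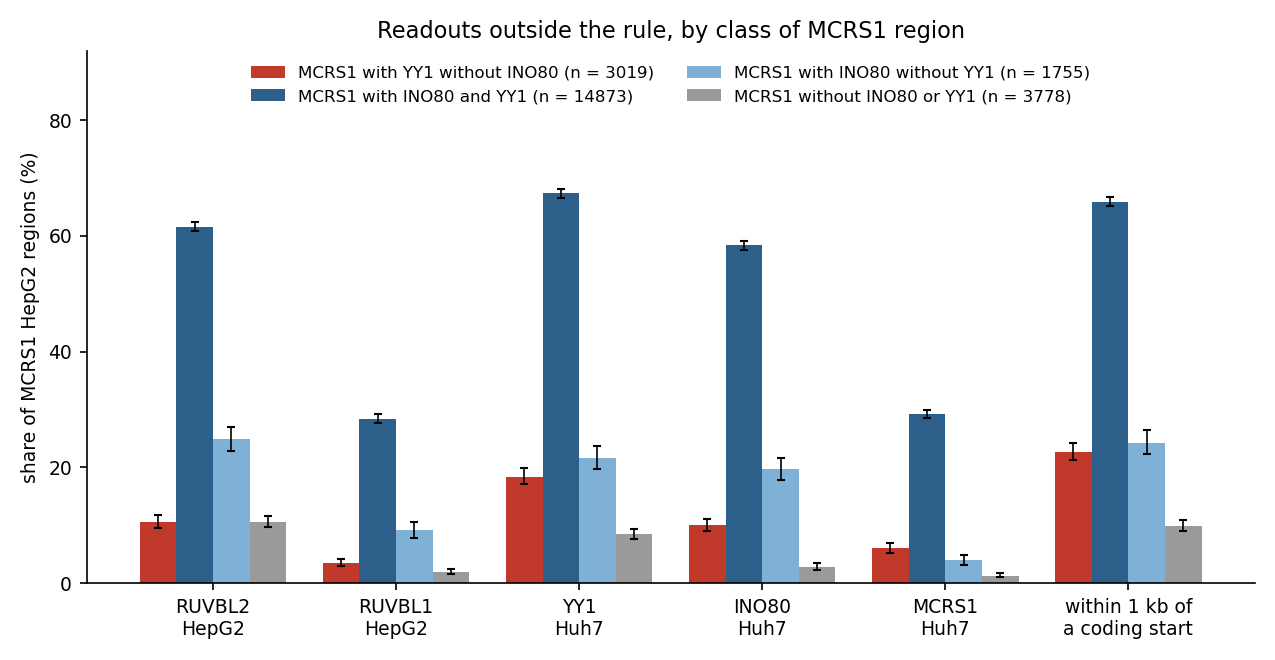
Share of MCRS1 HepG2 regions (percent, bars with 95% Wilson intervals) that overlap each list not used by the rule or lie within 1 kb of a coding start, in 4 classes by INO80 and YY1. Red bars, the regions with YY1 and without INO80, stand at 10.6% for RUVBL2 beside 61.6% in dark blue, and at 22.7% for coding starts beside 65.9%.

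Width moved with RUVBL2 in each of these 3 classes. Among regions with YY1 and without INO80 the share rose from 5.34% (3.96 to 7.16) at 147 to 199 bp to 10.0% at 300 to 399 bp and 23.8% (17.8 to 30.9) at 1000 bp or more. Regions with INO80 and YY1 went from 7.68% (5.64 to 10.4) to 83.0% over the same bands, so the intervals of the 2 classes overlapped at the narrowest width and lay far apart at the widest. Only 40 regions with neither factor reached 1000 bp, and 23 of them had RUVBL2, 57.5% (42.2 to 71.5), above the share with YY1 and without INO80 at that width. Between 200 and 400 bp, where 1229 of the regions fell, RUVBL2 was at 9.44% against 20.3% with INO80 and YY1, a difference of -10.9 points (-13.4 to -8.28), and 10.3% with neither. The part that peak strength or library depth plays in these shares was not tested, since the lists hold neither.

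**Figure D3:**
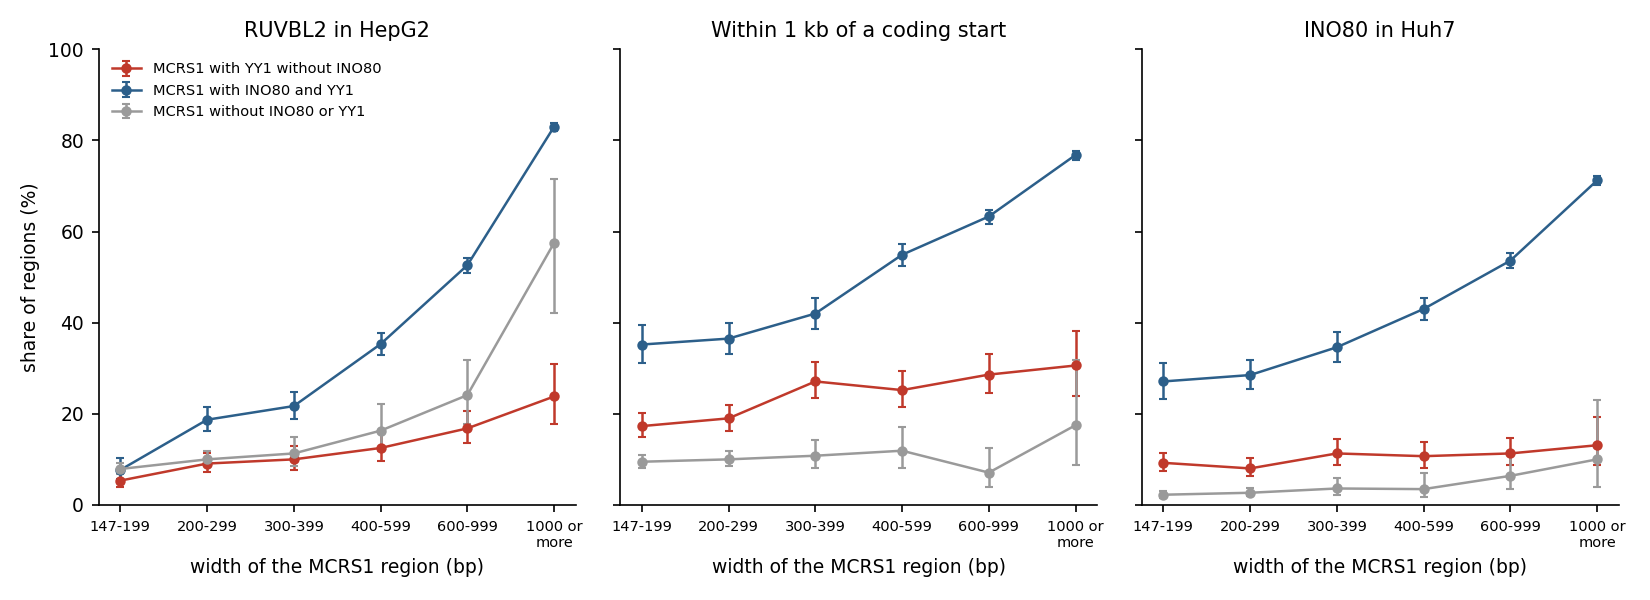
Share of regions (percent, points with 95% Wilson intervals) with RUVBL2 in HepG2, a coding start within 1 kb, or INO80 in Huh7, by width of the MCRS1 region in bp. The red line reaches 23.8% for RUVBL2 in the widest band where the blue line reaches 83.0%, and for INO80 in Huh7 it stays between 8.01% and 13.1%.

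In Huh7, most of these regions overlapped no called peak of any factor mapped. The Huh7 lists are shorter than those of HepG2, at 6020 against 23425 regions for MCRS1 and 3322 against 12936 for RUVBL2. For INO80 the numbers were 15303 and 23665, and for YY1 21554 and 39293. A missing peak does not show that a factor was absent. No Huh7 region of YY1, INO80, MCRS1 or RUVBL2 overlapped 2322 of 3019 (76.9%). At least 1 of the 4 lists overlapped the other 23.1% (21.6 to 24.6), against 54.6% of all MCRS1 regions in HepG2, 74.9% of those with INO80 and YY1, 10.3% of those with neither, and 17.5% of YY1 regions without MCRS1 or INO80. Between 200 and 400 bp the shares were 21.2% here, 48.6% with INO80 and YY1, 9.71% with neither and 24.2% for those YY1 regions. Among the 3019, YY1 alone was found in Huh7 at 309, INO80 with YY1 at 107, INO80 alone at 79 and INO80, MCRS1 and YY1 together at 70. MCRS1 with YY1 and without INO80, the combination that defined the regions in HepG2, occurred at 33 without RUVBL2 and at 2 with it.

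Factor by factor, YY1 in Huh7 overlapped 557 regions, 18.4% (17.1 to 19.9), where 48.1% of all MCRS1 regions in HepG2 had it. INO80 in Huh7 overlapped 301, 9.97% (8.95 to 11.1), against 40.3%. MCRS1 in Huh7 overlapped 182, 6.03%, against 19.8%, and RUVBL2 in Huh7 overlapped 43, 1.42%, against 11.4%. With every peak at 200 bp INO80 in Huh7 was at 16.8% of the regions that met the rule, and with the 50% requirement MCRS1 in Huh7 was at 3.37%. Regions with INO80 and YY1 had higher shares, and the difference was -48.9 points (-50.5 to -47.3) for YY1 and -48.4 points (-49.7 to -47.0) for INO80. Those regions are wider, and between 200 and 400 bp the differences were -20.7 points (-23.8 to -17.5) and -22.3 points (-25.1 to -19.5). With every peak at 200 bp, YY1 in Huh7 was at 26.0% against 51.8%, and INO80 in Huh7 at 16.8% against 38.2%. With all widths pooled, the regions with YY1 and without INO80 lay above those with neither factor. The differences were 9.98 points (8.35 to 11.6) for YY1, 7.14 points (5.97 to 8.36) for INO80 and 4.73 points (3.84 to 5.69) for MCRS1. The difference for RUVBL2 in Huh7, 0.260 points, had an interval that includes 0 (-0.278 to 0.831). The order did not hold in every width band. At 1000 bp or more, YY1 in Huh7 was at 33.1% (26.3 to 40.7) here. It was at 42.5% (28.5 to 57.8) of the 40 regions with neither factor. For INO80 in Huh7 these shares were 13.1% (8.75 to 19.2) and 10.0% (3.96 to 23.1), with overlapping intervals.

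Where Huh7 cells had MCRS1 at the same place, INO80 was there less often than at Huh7 MCRS1 regions as a whole. Of the 182 regions with MCRS1 in Huh7, the overlapping Huh7 MCRS1 regions likewise numbered 182, and 101 of them, 55.5% (48.2 to 62.5), overlapped INO80 in Huh7. The same share was 85.5% over all 6020 Huh7 MCRS1 regions and 89.1% over the 4694 that met HepG2 regions with INO80 and YY1. It was 51.0% (37.5 to 64.4) over the 49 that met HepG2 regions with neither factor. YY1 without INO80 was found at 33 of the 182, 18.1% (13.2 to 24.4), against 7.62% of all Huh7 MCRS1 regions and 20.4% (11.5 to 33.6) of those 49. The HepG2 regions with INO80 in Huh7 had RUVBL2 in HepG2 in 9.63% (6.79 to 13.5), and those without it in 10.7%, with overlapping intervals. For RUVBL1 in HepG2 the same shares were 7.97% (5.42 to 11.6) and 2.98% (2.40 to 3.69), which do not overlap.

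Gene starts held a minority of the regions. A start of a protein-coding gene lay within 1 kb of 686 of 3019, 22.7% (21.3 to 24.3), where 48.2% of all MCRS1 regions had one. The share was 65.9% with INO80 and YY1, 9.93% with neither and 6.17% for YY1 regions without MCRS1 or INO80. The difference from regions with INO80 and YY1, which are wider, was -43.2 points (-44.8 to -41.5). Between 200 and 400 bp the shares were 22.2% here and 39.3% with INO80 and YY1, a difference of -17.1 points (-20.4 to -13.7). In that band the share was 10.2% with neither and 6.30% for those YY1 regions. With every peak set to 200 bp, 40.6% of the 4459 regions that met the rule were at a start. The other classes were not compared at that setting. Over 10 kb from any coding start lay 52.9% of the 3019. The middle of a region fell in an intron of a coding gene in 40.5%, between genes in 30.4%, in an exon or untranslated region in 20.4% and in an intron of a non-coding gene in 8.78%.

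Regions at starts were more often shared with Huh7 than those away from starts. The same direction held with INO80 and YY1, where YY1 in Huh7 was at 81.6% at starts and 39.8% away from them. With neither factor these shares were 11.7% and 8.11%. Over all MCRS1 regions at starts, YY1 in Huh7 was at 74.4%, INO80 in Huh7 at 64.4% and MCRS1 in Huh7 at 31.8%. YY1 in Huh7 was at 33.7% (30.2 to 37.3) of the 686 at starts and at 326 of the 2333 away from them, a share with an interval of 12.6% to 15.4%. INO80 in Huh7 was at 137 of the 686, with an interval of 17.2% to 23.1%, and at 7.03% (6.06 to 8.14), and MCRS1 in Huh7 at 13.1% (10.8 to 15.9) and 3.94% (3.23 to 4.81). RUVBL2 in HepG2 was at 10.2% (8.16 to 12.7) and 10.8% (9.57 to 12.1), with overlapping intervals. At starts of the class with INO80 and YY1, RUVBL2 reached 69.2%. Starts on both strands lay within reach of 48 of the 686, a share with an interval of 5.32% to 9.16%, and of 12.5% of the start regions with INO80 and YY1, whose interval of 11.8 to 13.1 lies higher. With neither factor the share was 5.60% (3.69 to 8.41). Regions with INO80 and YY1 are wider, and the part that width plays here was not tested.

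The readouts varied with distance to INO80, not all in the same direction and not always steadily. The 492 regions less than 1000 bp from an INO80 region had a coding start in 32.3%, the 593 regions from 1000 to 4999 bp in 14.2% (11.6 to 17.2), and the 245 regions 100000 bp or more away in 34.3% (28.6 to 40.4). INO80 in Huh7 was at 10.6% of the nearest group, 6.24% (4.56 to 8.48) of the next and 21.6% (16.9 to 27.2) of the farthest. RUVBL2 in HepG2 went the other way, from 13.2% (10.5 to 16.5) in the nearest group to 4.90% (2.82 to 8.36) in the farthest. Median widths differed little over these groups, from 270.0 to 312.0 bp.

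The YY1 motif was scarce in these regions although YY1 was there by definition. The long form AANATGGC occurred within 200 bp about the middle of the MCRS1 region in 87 of 3017 regions with a fully known sequence, 2.88% (2.34 to 3.54), where 4.67% of all MCRS1 regions had it. It was at 5.41% of regions with INO80 and YY1, a difference of -2.52 points (-3.18 to -1.78). MCRS1 regions without YY1 had it in 3.99% with INO80 and in 3.50% with neither factor. The interval of the difference from the latter, -1.45 to 0.238 points, includes 0. With windows about the middle of the YY1 peak instead, 126 regions had the motif, 4.18% (3.52 to 4.95), against 6.37% with INO80 and YY1 and 10.6% of YY1 regions without MCRS1 or INO80. Inside the MCRS1 region itself lay the motif of 58 of those 126, 46.0% (37.6 to 54.7). The same share was 84.8% with INO80 and YY1, where regions are wider. The middle of the YY1 region fell inside the MCRS1 region in 58.3% and in 88.2% of the 2 classes.

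The core of the motif, AANATGG, which every match of the long form also matches, was in 10.3% (9.30 to 11.5) of the regions and 11.2% of those with INO80 and YY1. In regions with neither factor it reached 18.2%, with INO80 and no YY1 17.7%, and in all MCRS1 regions 12.7%. YY1 regions without MCRS1 or INO80 had it in 19.0%, in windows centred on the YY1 region where the other classes are centred on MCRS1.

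The ETS motif CCGGAAG was in 9.36% of the regions at starts and 9.42% of the class with INO80 and YY1 there, with an interval of the difference from -2.11 to 2.42 points, against 2.94% with neither factor and 8.93% of all MCRS1 regions at starts. The SP and KLF motif GGGGCGG, the GC box of many promoters, was in 24.1% (21.1 to 27.5) of the regions at starts and 32.4% with INO80 and YY1, in 11.5% with neither and in 31.0% of all MCRS1 regions at starts. Away from starts, FOXA, the forkhead motif spelled above, was in 15.7% (14.3 to 17.3) of the regions and 16.2% with INO80 and YY1. It was in 32.3% of YY1 regions without MCRS1 or INO80, whose windows are centred on the YY1 region and not on MCRS1. Also away from starts, the AP-1 motif TGANTCA was in 6.56% (5.62 to 7.64) of the regions and 6.17% with INO80 and YY1. The C/EBP motif TTGCNNAA was in 7.67% (6.66 to 8.82) and 7.14%. Over all MCRS1 regions away from starts the shares were 14.1% for FOXA, 5.64% for AP-1 and 6.86% for C/EBP. Over all MCRS1 regions, at starts and away from them together, they were 5.66% for ETS, 19.4% for SP and KLF, 10.8% for FOXA, 3.93% for AP-1 and 5.26% for C/EBP.

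The HNF4A motif was rare at 28 regions, 0.928%, and 0.577% of all MCRS1 regions. Among regions of 200 to 400 bp it was in 1.55% (0.993 to 2.40), against 0.445% with INO80 and YY1, a difference of 1.10 points (0.375 to 1.99) that rests on 19 and 7 windows in a band chosen after the data were seen. Away from coding starts, at all widths, the shares were 1.07% and 1.10%, with an interval of the difference from -0.508 to 0.532 points. The E-box CACGTG was in 4.71% of the regions and 4.70% of all MCRS1 regions. At coding starts it was in 7.02% (5.33 to 9.18), against 5.12% with INO80 and YY1, 2.14% with neither and 5.04% of all MCRS1 regions there. The first of these differences was 1.90 points (0.151 to 4.10). Away from starts the E-box was in 4.03% of the regions, 5.07% with INO80 and YY1 and 3.80% with neither. The CTCF letters AGNGGGCGC, which can overlap a GC box, were in 1.82% of the regions and 3.05% of all MCRS1 regions. The NRF1 motif GCGCATGC was in 0.862% and 1.40%. TGACGTCA, the CREB and ATF motif, was in 0.331% and 0.534%. GTTAATNAT, the HNF1 motif, was in 0.331% and 0.295%, and ACTACAATT, the ZNF143 and THAP11 motif, in 0.0331% and 0.0726%. All were searched on both strands as exact letters in 200 bp about the middle of the region. The median GC content of that window was 58.0% in the regions and 65.5% with INO80 and YY1, so motifs rich in GC do not start from equal ground.

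**Figure D4:**
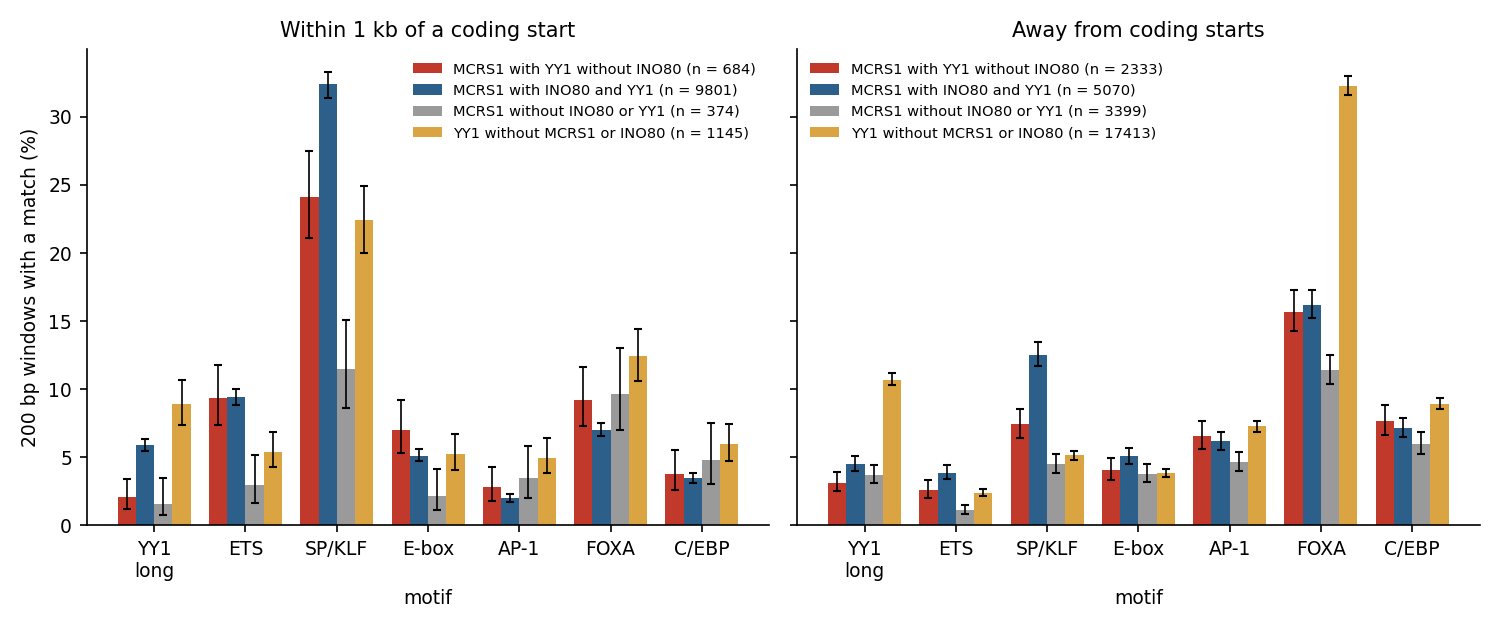
Share of 200 bp windows with at least 1 match to each motif (percent, bars with 95% Wilson intervals) at coding starts (left) and away from them (right), for 3 classes of MCRS1 region and for YY1 regions without MCRS1 or INO80. At starts the red bar for ETS, 9.36%, is level with the blue bar, 9.42%, while for the long YY1 motif it stands at 2.05% beside 5.88%. Windows are centred on the MCRS1 region, or on the YY1 region for the class without MCRS1.

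At the level of genes, 730 of 19785 protein-coding genes, 3.69%, had such a region within 1 kb of a start. Of these, 470 had no INO80 region at any of their starts in HepG2, a count that the rule fixes in part, and 260 did, at another start or elsewhere within 1 kb of the same one. Of the list genes named below with a region at a start, C4A, FGL1, ASL, KANSL1, MRPL34, DLX2 and IFT74 had INO80 in this way. Over all coding genes INO80 was at a start of 63.7% in HepG2 and 47.7% in Huh7. Among the 730 it was at a start in Huh7 of 36.6%, and among the 470 of 112 genes. In or within 10 kb of the gene lay such a region for 2789 genes, 14.1%. The 12 gene lists described next were chosen with earlier results of these files known, and their counts stand beside those over all coding genes in place of a test.

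Genes of the cilium had the highest share at starts of the 12 lists. A region lay at a start of 7 of 35 genes of intraflagellar transport and the BBSome, the machinery that carries cargo along the cilium, where 3.69% of all coding genes had one. IFT172 (700 bp, chr2:27711989-27712688) and IFT74 (429 bp) encode subunits of the intraflagellar transport B complex, as does TRAF3IP1 (597 bp). BBS7 (583 bp) is a BBSome subunit and ARL6 (682 bp, chr3:97483094-97483775) the GTPase that recruits it. KIFAP3 (305 bp) belongs to the kinesin-2 motor and DYNC2LI1 (235 bp) to the dynein-2 motor. IFT74 was the one of the 7 with INO80 at another of its starts, the nearest INO80 region being between 4248 bp (IFT172) and 179990 bp (KIFAP3) away from the regions. None of the 7 regions overlapped RUVBL2 in HepG2, which was at only 10.2% of all 686 regions at starts. In Huh7, ARL6 had YY1 and INO80, BBS7 had INO80 and MCRS1, IFT172 had YY1 and MCRS1, TRAF3IP1 had INO80 and KIFAP3 had MCRS1.

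Of 56 plasma protein and coagulation genes, 5 had a region at a start (8.93%) and 15 in or within 10 kb (26.8%). At starts these were SERPINA6, the corticosteroid carrier (606 bp), FGA, the fibrinogen alpha chain (338 bp, chr4:155511529-155511866), PROZ, protein Z (325 bp), complement C4A (579 bp) and FGL1 (156 bp). The nearest INO80 region in HepG2 was 427 bp from the C4A region, 712 bp from that of FGL1 and 1110 bp from that of FGA. C4A has a near-identical copy beside it, so reads there may be split between copies. Within reach but not at a start, SERPINA1, the gene of alpha-1-antitrypsin, had a region of 275 bp lying 4956 bp from its nearest start and 876 bp from INO80. AHSG, the gene of fetuin-A, held a region of 221 bp with RUVBL1 within the gene.

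Apolipoprotein and lipid transport genes had no region at a start among 23 and one in or near 6 (26.1%). A region of 918 bp beside APOC2, the gene of an activator of lipoprotein lipase, lay 2490 bp from the APOC2 start and overlapped RUVBL2. Of 28 hepatocyte transcription factor genes, none had one at a start, where 25 had INO80, and 5 had one in or within 10 kb (17.9%). HNF4A itself held 3, the widest 1463 bp (chr20:43056904-43058366) and 26963 bp from its nearest start. The retinoid receptor gene RXRA held 5, the widest 1322 bp, which also had YY1 and INO80 in Huh7. FOXA1 had 2 beside it.

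Enzymes of metabolism were near the background at starts when counted over all genes of each list. An MCRS1 region of any class lay at a start of 8 of the 35 drug and bile acid genes. The same count was 14 of the 23 urea cycle and amino acid genes and 27 of the 30 synthesis genes, against 58.1% of all coding genes. Drug and bile acid genes had 2 of 35 at a start (5.71%), ADH4, an alcohol dehydrogenase, and SLCO2B1, an organic anion transporter, and 6 in or near (17.1%). The urea cycle and amino acid list had 1 of 23 at a start (4.35%), the urea cycle enzyme ASL, and 6 in or near (26.1%), among them ASS1 of the same cycle. Cholesterol and fatty acid synthesis had 0 of 30 at a start and 5 in or near (16.7%), including SREBF1, the regulator of lipid synthesis, SCD, the stearoyl-CoA desaturase, and 3 regions in or near MVK, mevalonate kinase.

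The complexes that hold MCRS1 gave small counts. In the NSL list 1 of 10 genes had a region at a start (10.0%), KANSL1, with a region of 1044 bp (chr17:44302025-44303068), and KANSL1 has duplicated segments nearby, so reads there may come from more than one copy. PHF20 and HCFC1 had one within 10 kb. The INO80 complex list had 1 of 16 at a start (6.25%), RUVBL2, with a region of 197 bp that held YY1 in Huh7. INO80 was at a start of 9 of the 10 NSL genes and 15 of the 16 INO80 complex genes in HepG2.

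Of 77 mitochondrial ribosomal protein genes, 75 had INO80 at a start and 3 had a region of this class there (3.90%): MRPL34 (1122 bp), MRPS17 (532 bp) and MRPS6 (189 bp). Developmental regulators often held by Polycomb had 1 of 50 at a start, DLX2, and neuronal genes 0 of 30. In or within 10 kb these last 2 lists had 4 of 50 and 2 of 30, smaller shares than the 14.1% of all coding genes. An MCRS1 region of any class lay at a start of only 8 of those 50 genes and 7 of those 30.

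**Figure D5:**
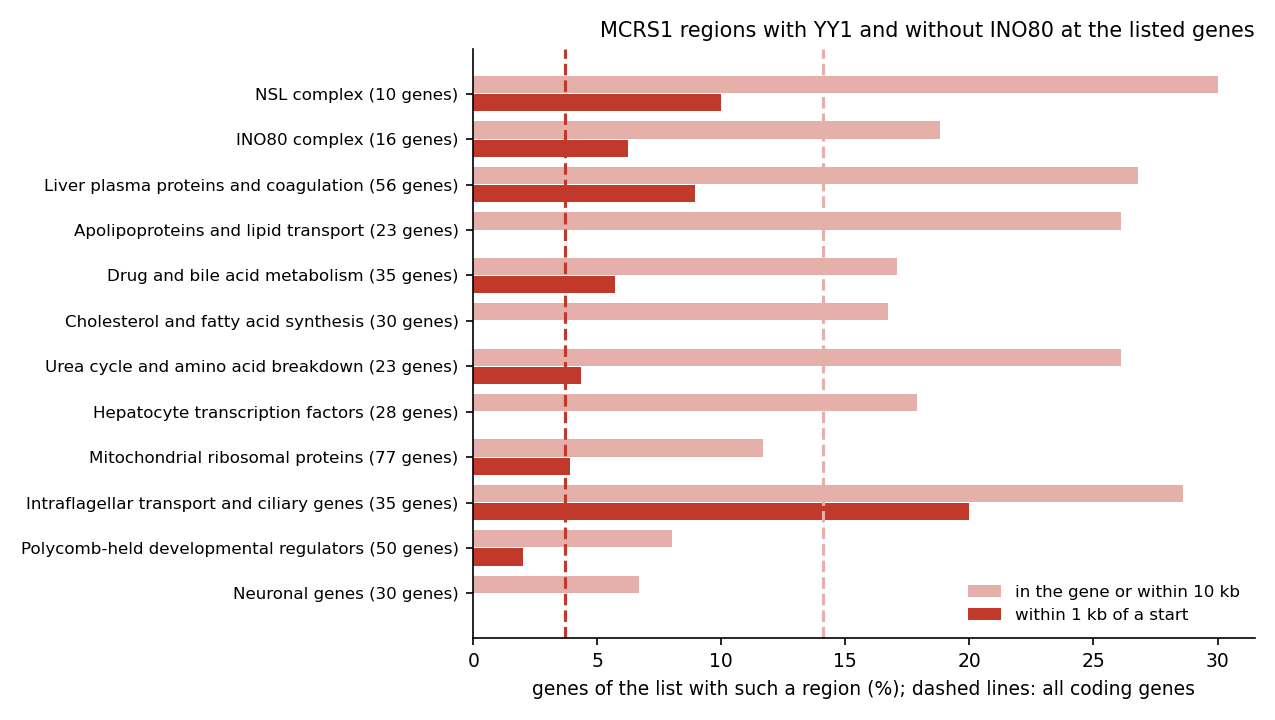
Percent of the genes of each of 12 lists with an MCRS1 region that has YY1 and lacks INO80 within 1 kb of a start (dark bars) or in or within 10 kb of the gene (light bars), with the same shares of all coding genes as dashed lines at 3.69% and 14.1%. The cilium list, with 7 of 35 genes, has the tallest dark bar, and 4 lists have none there.

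Of the 10 widest regions, 9 lay away from coding starts. The widest of all, 2672 bp, overlapped the glycolysis enzyme gene ENO1 (chr1:8925906-8928577), 10167 bp from the nearest coding start and 599 bp from INO80, with RUVBL2 in HepG2 and YY1 in Huh7. Regions of 2278 bp in IL1R1, an interleukin receptor gene, of 2119 bp at CBLC, a ubiquitin ligase gene, and of 2046 bp in RPTOR, a subunit gene of the growth kinase complex mTORC1, were among the next. Others of the 10 widest lay in BCAR1, an adaptor gene of cell adhesion, in SDC1, and outside coding genes with SIRPA, POTEG and LMLN as the nearest coding starts. SULT1A1, a sulfotransferase gene, had the widest at a start, 1953 bp (chr16:28619915-28621867). SULT1A1 and POTEG belong to families of near-identical copies, so their regions may hold reads from other copies. RUVBL2 was at 6 of the 10 and YY1 in Huh7 at 6, and INO80 and MCRS1 in Huh7 were at none. Over the 160 regions of 1000 bp or more, RUVBL2 was at 23.8%, YY1 in Huh7 at 33.1% and INO80 in Huh7 at 13.1%. MCRS1 in Huh7 was at 6.03% of all 3019 regions, so none of 10 sets these apart in neither INO80 nor MCRS1.

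After SULT1A1, regions among the 5 widest at starts were those of COPS7A, a COP9 signalosome subunit gene (1497 bp), GIPC1, an adaptor gene (1478 bp), and the zinc finger gene ZSCAN5A (1442 bp). The GIPC1 region lay 194 bp from INO80 in HepG2. COPS7A held RUVBL1 and RUVBL2 in HepG2 and YY1 and INO80 in Huh7 (chr12:6832663-6834159), 22424 bp from INO80 in HepG2. The others of the 5 widest regions with both RUVBL proteins lay in introns of ARHGAP35, of IRAK2, a kinase gene of innate signalling, of GPRC5C, a receptor gene, and of PLIN2, the gene of a lipid droplet coat protein. The GPRC5C region was 70 bp from INO80 and the IRAK2 region 38150 bp.

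The 5 widest regions that kept MCRS1 and YY1 without INO80 in Huh7 lay at the starts of BCAS3 (1262 bp, chr17:58754568-58755829), POLR1E, a subunit gene of RNA polymerase I (1238 bp), and BIN3 (887 bp), in an intron of the proteoglycan gene SDC4 (1236 bp), and 18840 bp from GPRC5A (869 bp). RUVBL1 in HepG2 was at the BCAS3 region and RUVBL2 at none of the 5, where 3.48% and 10.6% of all 3019 regions had them. INO80 in HepG2 was 73396 bp away at BCAS3 and 1201 bp away at SDC4.

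The rule has 2 edges. Just inside it lay 54 regions with an INO80 region within 100 bp, of median width 244.0 bp, 33.3% of them at coding starts and 9.26% with RUVBL2. Just outside lay 162 MCRS1 regions with YY1 that INO80 overlapped by 100 bp or less, of median width 268.5 bp, 20.4% at coding starts and 18.5% with RUVBL2. On the YY1 side, 292 regions shared 50 bp or less with YY1 and had RUVBL2 in 8.56%, and 188 regions without INO80 missed a YY1 region by 50 bp or less and had RUVBL2 in 4.79%. By chromosome, the regions were between 9.50% of MCRS1 regions on chromosome 13 and 21.8% (17.4 to 26.8) on chromosome 21.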

How the data were processed

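Per the submitters' processing notes, Bowtie2, SAMtools, MACS2, bedtools and deepTools were used with the builds hg19 and dm3. Versions are not given in the sources used here, nor is it stated if calling was done library by library or after pooling. The authors deposited 1 filtered list per factor and line with 6 columns, positions only. The shortest region is 147 bp, and no pair of MCRS1 regions in HepG2 lies closer than 501 bp. Fly tags of the H3K27ac libraries were not used here. The members and gene lists were chosen with earlier results of these data known.

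Overlap meant at least 1 shared bp. Starts were those of protein-coding transcripts in GENCODE annotation (release 44) mapped back onto GRCh37, identical to hg19 in the chromosomes used, and all 413 entries of the gene lists matched. Coordinates are 1-based. Named regions were taken by width: the 10 widest, and the 5 widest at starts, away from starts, with both RUVBL proteins, and with MCRS1 and YY1 but no INO80 in Huh7, plus listed genes with the widest region at a start. For listed genes beyond those, names were chosen after their values were seen. Some items these rules pick are not reported here. Motifs were matched exactly with Python 3.11.15 and pysam 0.24.0, leaving out 2 regions with unknown bases. Overlap and interval code was tested on simulated data. Alternatives changed the overlap, width, INO80 distance, chromosomes, starts and motif window.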

Additional observations from a re-analysis of the deposited data

How the results depend on the processing

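The lists allow no replicate to be left out, and no paired analysis was possible because each factor has 1 list per line and no result comes from a test. Of 52 alternative values for 8 results, 14 stayed within the interval of the reported share, or within 1.5 times the reported count. When all peaks were given a width of 200 bp, the shares were 19.8% for RUVBL2, 7.42% for RUVBL1, 16.8% for INO80 in Huh7, 8.93% for MCRS1 in Huh7, 26.0% for YY1 in Huh7, 40.6% for coding starts and 4.13% for the long YY1 motif. With at least 50% of the MCRS1 region covered, 1841 regions remained by the rule and the same 7 shares were 4.73%, 1.90%, 7.33%, 3.37%, 14.4%, 25.4% and 3.59%. The wider 50%, 1509 regions, gave 14.1%, 4.57%, 11.3%, 7.89%, 20.9%, 27.4% and 2.19% in that order. Regions of 200 to 400 bp, a band added after the data were seen, numbered 1229 and gave 9.44% for RUVBL2, 2.36% for RUVBL1, 5.04% for MCRS1 in Huh7 and 16.8% for YY1 in Huh7. Leaving out chromosomes 2, 14, 16, 17 and 20, which HepG2 carries in excess, RUVBL2 was at 9.10%, INO80 in Huh7 at 11.9%, MCRS1 in Huh7 at 7.26%, YY1 in Huh7 at 22.1% and coding starts at 26.6%. With no INO80 region within 1 kb, coding starts were at 20.9%. They were at 36.8% with a window of 5 kb and at 36.9% with starts of all annotated genes. The long YY1 motif was at 4.18% about the centre of the YY1 region and at 8.02% in 500 bp. In each alternative the cause of the change was not tested, beyond the regions added or removed by its construction. A missing INO80 peak does not show that INO80 was absent, since depth sets what is called and the lists do not give it.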

Other observations

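Zinc finger genes were picked out after the regions at starts were seen, so their count is a description. Of 562 protein-coding genes with ZNF, ZSCAN, ZFP or ZKSCAN symbols, 55 had an MCRS1 region with YY1 and without INO80 within 1 kb of a start, 9.79%, where 3.69% of all coding genes did. INO80 was at no start of 45 of them in HepG2. Over the whole family INO80 was at a start of 68.7%, against 63.7% of all coding genes. After ZSCAN5A, the widest of the 45 were at ZNF473 (1321 bp), ZNF223 (858 bp) and ZNF780A (818 bp). The last of these had YY1, INO80 and MCRS1 in Huh7, as did ZNF416 (540 bp) and ZSCAN5A. Several of these genes lie side by side on chromosome 19 and resemble each other in sequence, so their regions are not independent and reads may be shared between copies.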
